A study of Mus musculus with 30 samples.

Results

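Chromatin accessibility was compared between 3 ATAC-seq libraries of mouse mesenchymal stem cells (MSCs) treated with cytochalasin D (CytoD) for 24 h and 3 libraries of control MSCs, which are 6 of the 30 samples of the series. Both groups came from one primary MSC line, made from pooled marrow of male C57BL/6J mice with no engineered allele, and differed by label in CytoD alone. Each library was prepared from 50000 cells by Omni-ATAC, in which the Tn5 transposase cuts open DNA and inserts sequencing adapters. The measurement was the number of reads in each of 305931 consensus windows of the genome, of which 300323 passed the filter on low counts and were tested. Nothing in the labels ties the replicates to separate animals, so p-values measure only the spread between samples. In the main fit that spread was estimated over 9 libraries, these 6 and 3 of MSCs treated for 24 h with the Arp2/3 inhibitor CK666. Libraries of MSCs at 4 h, control or with CK666, were used only where named.

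CytoD blocks the assembly of actin filaments in the cytoplasm, and actin then moves into the nucleus. Actin tension is read by several transcription factors: the SRF coactivator MRTF is held back by actin monomers, and YAP and TAZ, which bind DNA through TEAD proteins, depend on tension and adhesion. AP-1, the Fos and Jun dimer, opens enhancers in adherent mesenchymal cells, often beside TEAD, whereas C/EBP proteins and the nuclear receptor PPARγ drive fat cell formation, the alternative to bone formation in these cells.

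The limits were those of the study, a log2 fold change beyond 1 in size together with a Benjamini-Hochberg adjusted p below 0.01. The study applied them to DESeq2's Wald test and reported 2102 increased and 4011 decreased regions for CytoD. With edgeR's quasi-likelihood test, used here, 7151 windows were called, which is 2.38% of those tested. Of these, 2944 were more open with CytoD (gained, 0.980% of tested) and 4207 were less open (lost, 1.40%). Lost windows had a median of 85.4 normalized counts in control cells, against 20.6 over all tested windows, whereas gained windows had 20.8. These medians come from the same control libraries that made the calls. Most windows of both kinds lay away from promoters.

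Central sequences of 5 of the most significant windows away from a transcription start site (TSS) are given here as examples of the called DNA. Each is the plus strand of GRCm38 from the RefSeq assembly, with capitals marking matches on either strand to AP-1 (TGACTCA or its reverse complement TGAGTCA), TEAD (GGAATG or CATTCC) or RUNX (TGTGGT or ACCACA). No match to the C/EBP letters was present in these 5.
Lost, intron of Fmn2, chr1:174641004-174641303: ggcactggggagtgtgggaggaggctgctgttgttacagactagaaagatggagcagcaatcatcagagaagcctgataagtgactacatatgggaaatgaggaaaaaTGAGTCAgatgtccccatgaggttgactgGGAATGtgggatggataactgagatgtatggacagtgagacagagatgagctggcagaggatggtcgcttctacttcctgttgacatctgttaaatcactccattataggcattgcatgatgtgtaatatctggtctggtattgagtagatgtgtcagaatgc
Lost, intergenic near Trappc6b, chr12:59040436-59040735: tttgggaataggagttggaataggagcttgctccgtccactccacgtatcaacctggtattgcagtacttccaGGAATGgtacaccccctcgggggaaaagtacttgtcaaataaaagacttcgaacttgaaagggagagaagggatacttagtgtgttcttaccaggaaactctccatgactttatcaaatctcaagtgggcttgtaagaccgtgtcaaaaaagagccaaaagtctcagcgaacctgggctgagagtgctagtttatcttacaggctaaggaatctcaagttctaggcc
Lost, intron of Tns3, chr11:8451686-8451985: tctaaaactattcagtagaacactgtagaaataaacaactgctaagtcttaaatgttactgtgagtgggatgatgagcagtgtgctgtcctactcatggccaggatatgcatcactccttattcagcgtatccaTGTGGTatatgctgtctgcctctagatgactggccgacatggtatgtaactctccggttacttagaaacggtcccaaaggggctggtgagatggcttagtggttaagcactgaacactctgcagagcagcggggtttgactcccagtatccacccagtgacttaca
Gained, intron of Gpr39, chr1:125857880-125858179: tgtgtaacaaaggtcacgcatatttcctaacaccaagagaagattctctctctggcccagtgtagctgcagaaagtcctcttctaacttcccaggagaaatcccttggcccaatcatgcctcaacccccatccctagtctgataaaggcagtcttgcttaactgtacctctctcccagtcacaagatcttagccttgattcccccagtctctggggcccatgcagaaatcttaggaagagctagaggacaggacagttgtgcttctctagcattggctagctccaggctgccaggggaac
Gained, intergenic near Magohb, chr6:131270353-131270652: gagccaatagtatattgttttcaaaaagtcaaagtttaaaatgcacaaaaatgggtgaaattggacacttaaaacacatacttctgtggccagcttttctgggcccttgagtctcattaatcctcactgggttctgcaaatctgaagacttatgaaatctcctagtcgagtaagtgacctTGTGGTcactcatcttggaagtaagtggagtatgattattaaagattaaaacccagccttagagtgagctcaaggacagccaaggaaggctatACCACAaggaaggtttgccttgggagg
The Fmn2 window held an AP-1 and a TEAD match, the Trappc6b window a TEAD match and the Tns3 window a RUNX match. The gained Gpr39 window held none of these letters, and the gained Magohb window held 2 RUNX matches. Single windows thus did not divide by these letters. Of the other leading gains, the one in 4933433G19Rik held a TEAD and a RUNX match and the one in Psat1 a RUNX match. Those in Trabd2b and Jakmip3 held none.

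The lost window in Fmn2, which encodes a formin that nucleates actin filaments, had 870, 948 and 1017 TMM-normalized read counts in the control libraries and 278, 268 and 264 with CytoD. Its log2 fold change was -1.81 ± 0.09 (SE, n = 3 per group, edgeR adjusted p = 1.1e-27). Each SE was derived as the size of the log2 fold change over the square root of edgeR's F statistic. The spread in that statistic is shared over the 9 libraries of the fit. The window near Trappc6b, a vesicle tethering factor, had 1423, 1582 and 1572 counts in control and 553, 541 and 577 with CytoD (log2 fold change -1.45 ± 0.08). In Tns3, which encodes the focal adhesion protein tensin 3, counts were 728, 788 and 732 in control and 204, 235 and 226 with CytoD (-1.76 ± 0.10). Only windows without overlap between the groups were named here, so each CytoD library was below every control library by selection. The other 3 of the 6 most significant lost windows lay in an intron of Ldlrad3, in the noncoding gene D230017M19Rik near Pecr, a peroxisomal fatty acid enzyme, and near Ryr3, a calcium release channel, with log2 fold changes of -1.58, -1.75 and -1.58.

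Among gained windows, the one in Gpr39, a zinc-sensing receptor, had 61.1, 93.4 and 81.6 counts in control and 315, 355 and 352 with CytoD (log2 fold change 2.09 ± 0.14, edgeR adjusted p = 6.8e-21). The window in Jakmip3, which encodes a microtubule-binding protein, had 101, 99.1 and 108 counts in control and 330, 408 and 406 with CytoD (1.89 ± 0.13). The control values of both were low, and every CytoD library lay above them, again by selection. Over all tested windows 12.7% had every CytoD library above every control library and 13.1% had every one below. The window near Magohb, an exon junction protein, rose by a log2 fold change of 1.44 ± 0.10 from 181, 219 and 216 counts to 516, 616 and 554. The remaining 3 of the 6 most significant gains were in the noncoding gene 4933433G19Rik (1.42), an intron of the Wnt-inhibiting protease gene Trabd2b (1.54) and a UTR of Psat1, an enzyme of serine synthesis (1.69). None of these 12 windows lost its call under any of the 17 alternative fits.

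**Figure D1:**
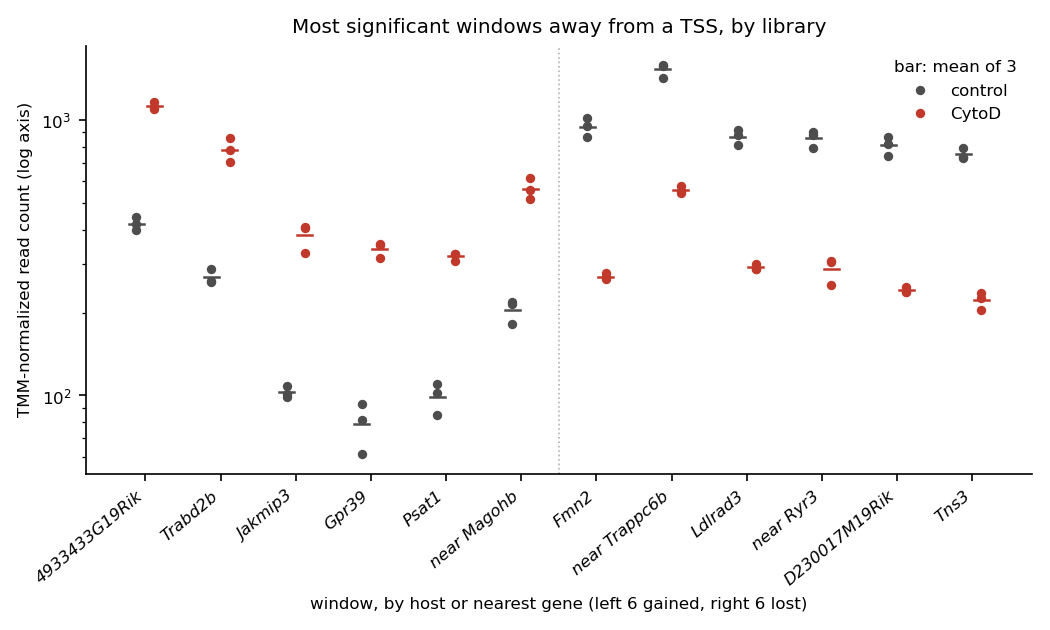
TMM-normalized read counts (log axis) in each control (grey) and CytoD (red) library at the 6 most significant gained and the 6 most significant lost windows without a TSS, with bars for the mean of 3 libraries. Windows were picked to have no overlap between the groups, so CytoD libraries lie above (left) or below (right) the control libraries by selection. Counts run from 61.1 at the lowest to 1582 at the highest.

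Few promoters were called. Of 17356 windows that contain a TSS, 53 gained and 46 lost, or 0.305% and 0.265%, against 1.01% and 1.28% of intronic and 1.04% and 1.72% of intergenic windows. TSS windows made up 5.78% of the windows tested but 1.80% of gains and 1.09% of losses, while intergenic windows made up 38.2% of those tested and 46.9% of losses. The share of all counts that fell in TSS windows was 27.1, 27.3 and 27.9% in control and 27.6, 27.5 and 27.2% with CytoD. These ranges overlapped (difference 0.0072 percentage points, two-sided exact permutation p = 1). TSS windows were also the most open class, with a median of 160 normalized counts in control against 19.96 in introns. Within the most open quintile of windows 0.418% of TSS windows were lost, against 7.13% of intronic and 9.61% of intergenic windows.

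Among 8 gained TSS windows that averaged at least 50 counts and had no overlap between the groups, the largest fold was at Acaca, which encodes the acetyl-CoA carboxylase of fatty acid synthesis (chr11:84172949-84173496), with 22.5, 40.9 and 35.2 counts in control and 100.3, 96.9 and 122 with CytoD (log2 fold change 1.66 ± 0.23). This window held a C/EBP match. The promoter of S100a8, a calcium-binding protein of myeloid cells (chr3:90668715-90669243), rose from 83.6, 86.8 and 116 to 290, 279 and 306 counts (1.60 ± 0.14). The groups were apart at both promoters, as the limits required. Those of the amylase Amy1 (1.51), the interferon-inducible GTPase Gbp6, Gsg1 (1.27) and the neural factor Olig1 (1.09) also gained, although the Olig1 call was lost without CytoD replicate 1 or control replicate 1. Amy1 and Gbp6 belong to families of near-identical copies, and how reads matching several places were counted is not given in the sources.

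Among the 14 lost TSS windows within the same limits the largest fall was at Gtsf1, a factor of the germline small RNA pathway (chr15:103428228-103428812), with 161, 128 and 113 counts in control and 41.6, 47.8 and 33.4 with CytoD (log2 fold change -1.71 ± 0.21). A window with a TSS of Cav1, the membrane scaffold caveolin-1 (chr6:17305781-17306337), fell from 102, 98.3 and 112 to 35.5, 37.3 and 49.2 counts (-1.34 ± 0.22). Bcat1, an enzyme of branched-chain amino acid breakdown (chr6:145075792-145076345), fell from 301, 337 and 355 to 126, 155 and 118 (-1.33 ± 0.12). All 3 promoters were lower in every CytoD library than in any control library, as the limits required. Krtap1-5 (-1.41), 4930486L24Rik (-1.26) and Gtf3c6, a subunit of the RNA polymerase III factor TFIIIC (-1.17), completed the 6.

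The direction of change followed how open a window was beforehand. Openness was taken from 4 h control MSC libraries, which are other cultures counted in a separate table, as counts per kb scaled to the library total (CPM per kb) in the overlapping window, and 230051 of the tested windows had one. The median log2 fold change with CytoD fell at every step, from 0.35 in the least open decile to -0.25 in the most open decile. Windows with no 4 h counterpart had a median of 0.44. In the least open decile 1.47% of windows gained and 0.0348% lost, whereas in the most open decile 0.0261% gained and 7.47% lost. The most open 2 deciles, which are 15.3% of tested windows, held 73.2% of all losses and 1.32% of gains. Median control counts were 12.5 in the least and 254 in the most open decile. Low counts limit what can be called, and the part of this in the called shares was not tested. With CytoD the median of gained windows was 53.6 normalized counts and that of lost windows 36.1. In the 4 h controls gained windows had a median of 1.21 CPM per kb, lost windows 10.5 and all tested windows 1.88.

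The same dependence was present in each CytoD library and, at a smaller size, within the controls. Against the mean of the controls the median log2 difference in the least open decile was 0.34, 0.32 and 0.37 in the CytoD libraries, and in the most open decile it was -0.25, -0.21 and -0.26. Control replicate 1, the shallowest control library, deviated from the other controls in the same direction, by 0.21 in the least and -0.13 in the most open decile, and control replicate 3 deviated the other way, by -0.11 and 0.09. The log2 ratio of counts in the most to those in the least open quintile, which needs no scaling, was 3.63, 3.87 and 3.96 in control and 3.35, 3.41 and 3.33 with CytoD. All CytoD libraries lay below all control libraries, with a mean difference of -0.46 (two-sided exact permutation p = 0.1, the smallest that 3 against 3 libraries allow). Total counts per library were 14122298 to 22352180 in control and 14071301 to 19457534 with CytoD. The deepest CytoD library had the lowest ratio, and the part of depth in this difference was not tested.

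**Figure D2:**
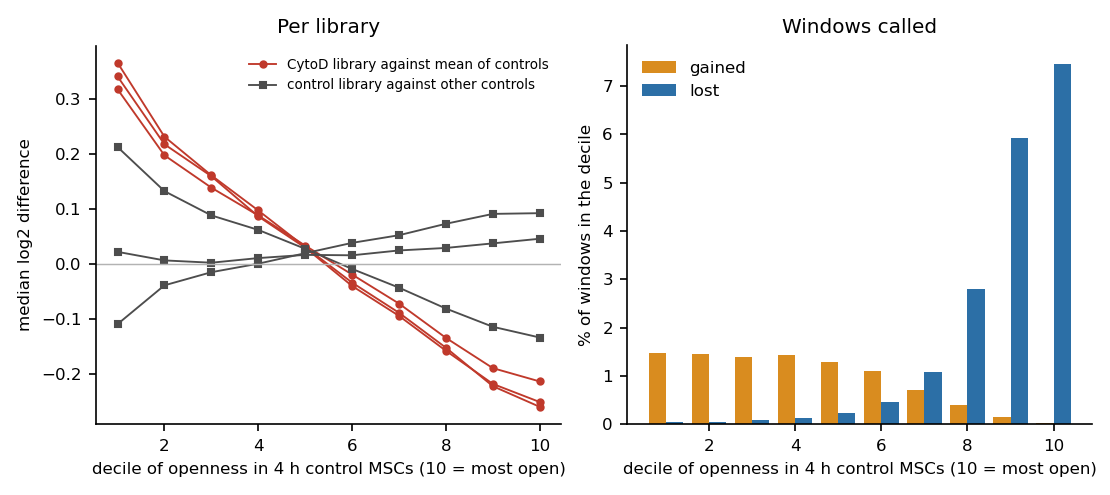
Left, the median log2 difference of each CytoD library against the control mean (red) and of each control library against the other controls (grey) by decile of openness in 4 h control MSCs. Right, the percentage of windows in each decile that gained or lost with CytoD: gains fall from 1.47% to 0.0261% and losses rise from 0.0348% to 7.47% as windows become more open. Median control counts rise from 12.5 to 254 over the same deciles.

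Whether gains or losses were more numerous depended on the windows that the scaling took as unchanged. TMM on all windows gave 2944 gains and 4207 losses (41.2% gains). Total counts gave 3823 and 2961 (56.4% gains), TMM on TSS windows 3672 and 3022 (54.9%), and TMM on the most open quintile, ranked here by mean counts of the 6 libraries, 4977 and 2178 (69.6%). The median log2 fold change over all windows moved with them, from 0.04 under TMM to 0.12, 0.11 and 0.19. The median over TSS windows was -0.07 under TMM, 0.01 under total counts and 0.08 under TMM on the most open quintile. The difference between the most and the least open quintile stayed at -0.51 under each of these, and was -0.26 with offsets fitted by abundance, which remove such a trend by construction. A set of 2243 gains and 2166 losses was called under all 7 scalings, 76.2% of the main gains and 51.5% of the main losses. No window was gained under one scaling and lost under another.

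**Figure D3:**
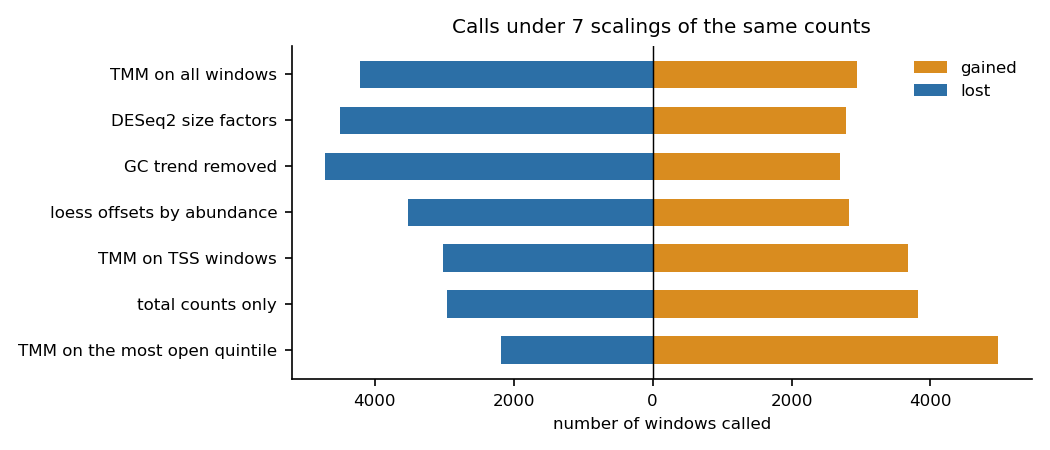
Number of windows called gained (right of 0) and lost (left of 0) under 7 scalings of the same counts. The split runs from 2693 gains and 4709 losses after removal of a GC trend to 4977 gains and 2178 losses with TMM on the most open quintile.

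Called windows were of moderate size. The median log2 fold change was 1.40 in gains and -1.24 in losses, and 416 gains and 143 losses lay beyond 2 in either direction. The limit of 1 cut through many values: among windows with adjusted p under 0.01, 195 gains lay within 0.05 above it and 219 just below, and 582 losses lay within 0.05 past it and 554 just short of it. Without a fold limit 5114 windows rose and 12020 fell, 5.71% of those tested. GC content was similar, with a median of 44.1% in gains, 43.9% in losses and 45.9% in all tested windows. Over the libraries the mean GC content of counts was 49.6 to 49.7% in both groups.

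Letters of transcription factor motifs differed strongly between gains and losses. They were searched on both strands in the central 300 bp of each window, and a match is a description, not a bound site. AP-1 letters were in 41.5% of lost windows, 5.77% of gained windows and 16.2% of all tested windows. TEAD letters were in 35.9% of losses and 15.8% of gains, against 19.9% of all. The SRF CArG box, searched by its consensus, was in 3.11% of losses and 1.22% of gains, against 1.55%. C/EBP letters (TTGCNNCAA or TTGCNNAAT) ran the other way, with 14.1% of gains, 5.16% of losses and 6.28% of all windows. RUNX letters, for the family that includes the bone factor Runx2, were in 31.1% of gains and 31.9% of losses, against 27.8% of all.

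AP-1 and TEAD letters together marked the windows most often lost. Of 201916 windows with neither, 0.755% were lost, of 49827 with TEAD alone 1.88%, of 38690 with AP-1 alone 3.03%, and of 9890 with both 5.80%. The share that gained went down over the same classes, from 1.16% to 0.313%. Median log2 fold changes were 0.10, 0.03, -0.20 and -0.30. AP-1 windows were also more open at baseline, so the comparison was made within quintiles of openness. Openness still varied inside a quintile, and TSS windows were not set apart. The most open quintile of 46010 windows held 9094 TSS windows, with a median log2 fold change of -0.12. Windows with both kinds of letters were not compared by quintile. Within the most open quintile 44.4% of losses and 26.3% of all windows held AP-1 letters, and the median log2 fold change was -0.45 with them and -0.18 without. In the least open quintile it was 0.16 with them and 0.29 without. Windows with AP-1 letters were thus lower in each quintile, with differences of -0.13 to -0.28, while those with C/EBP letters were higher in each quintile, by 0.05 to 0.10.

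CTCF and GC box windows were seldom called. Of 4080 windows with the CTCF core, which marks insulators, 6 gained and 6 lost, or 0.147% each. In the most open quintile their median log2 fold change was -0.03, against -0.24 for windows without it. The GC box GGGCGG, common in promoters, was in 7.77% of all windows but 3.26% of gains and 4.59% of losses.

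The same letters separated the libraries without any call or scaling. Of counts outside TSS windows, AP-1 windows took 22.5, 23.4 and 23.4% in control and 19.84, 20.08 and 19.97% with CytoD. TEAD windows took 22.4 to 22.7% in control and 21.3% in each CytoD library, and C/EBP windows took 6.64, 6.70 and 6.73% in control and 7.09, 7.11 and 7.08% with CytoD. CArG windows took 1.81 to 1.84% and 1.72 to 1.73%. The groups did not overlap for any of these 4, but the same held for 9 of the 10 sets of letters counted, all except NFI, so the lack of overlap was not particular to them. The exact permutation p was 0.1 for each of the 9, or 0.13 after adjustment over the 13 library values tested in this way. The difference was -3.15 percentage points for AP-1, -1.33 for TEAD and 0.40 for C/EBP, and -0.32 for RUNX, the fourth in size. These shares were not matched for openness. AP-1 letters were in 9.31% of windows in the least and 27.1% in the most open decile. The part of the openness difference between the libraries in these shares was not tested.

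**Figure D4:**
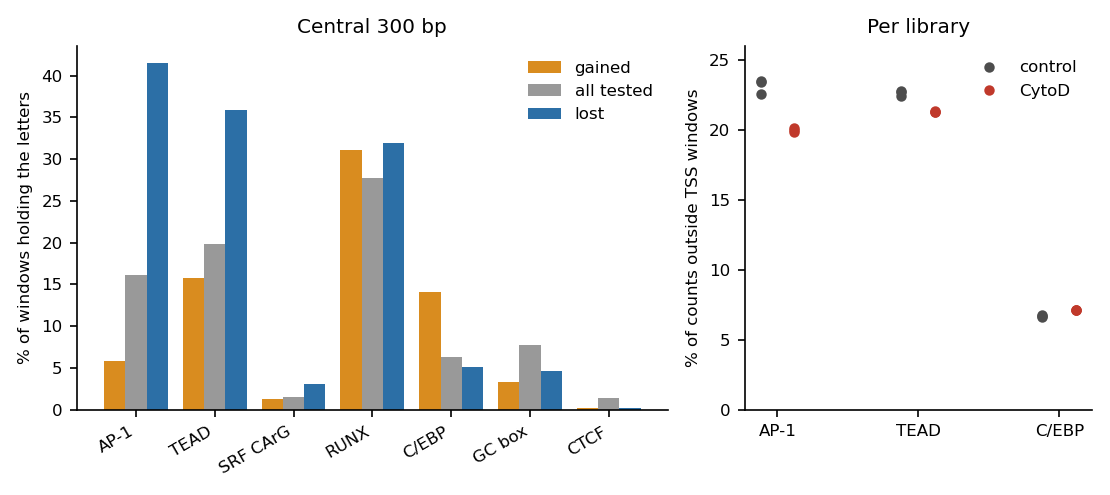
Left, the percentage of gained, all tested and lost windows with each set of motif letters in the central 300 bp, with AP-1 in 41.5% of losses and 5.77% of gains. Right, the percentage of each library's counts outside TSS windows that fell in windows with AP-1, TEAD or C/EBP letters, in control (grey) and CytoD (red) libraries.

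Counting all 8192 words of 7 letters, with reverse complements joined, gave much the same letters without a list. The word most in excess among losses over all windows was TGACTCA. The next 4 shared 6 letters with it and had another base at one end, from ATGACTC (19.7% of losses, 8.36% of all) to CTGAGTC (19.3% and 9.86%), followed by CATTCCA (16.2% and 6.80%) and ACATTCC (15.5% and 6.497%), which hold TEAD letters. Among gains the leading words were TGTGAAA (11.99% of gains, 6.64% of all), TTCACAA (10.4% and 5.23%), TGCAACA (8.66% and 4.10%) and TTGCAAA (8.87% and 4.33%), of which the last pair hold letters of C/EBP sites. The word count was made after the values had been seen.

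Under TMM on all windows, those near genes of actin and adhesion lost more often than they gained, but with TMM on the most open quintile gains were more numerous at YAP-TEAD, MRTF-SRF, actin assembly, focal adhesion and matrix genes, and with total counts also at MRTF-SRF (8 against 6) and actin assembly genes (8 against 6). Of the 10 lists plotted, only the adipocyte, lamina and LINC and unfolded protein response lists kept their majority under all 7 scalings. A window was assigned to a listed gene if it contained the TSS or lay within 50 kb of it as the nearest. Lists were not matched to all tested windows for openness, and the part of openness in their shares was not tested. Under TMM on all windows, shares lost above 1.40% were not particular to actin and adhesion genes. They were 2.30% at osteoblast and 2.33% at matrix genes, whereas adipocyte (1.28%) and AP-1 factor genes (0.741%) lay below it. Beside the background of 0.980% gained and 1.40% lost, 4 of 619 windows at YAP-TEAD target genes gained and 16 lost (2.58%), with a median log2 fold change of 0.01 against 0.04 over all windows. Losses were at 10 of the 22 genes, with 3 windows at Ccn2 and 2 each at Ccn1, Amotl2, Ccdc80 and Asap1. Near Ccdc80, a matrix protein, the one with the smallest adjusted p (chr16:45077419-45077981) fell from 328, 342 and 348 to 69.7, 111 and 87.9 counts (log2 fold change -1.92 ± 0.14). Near Ccn1, a secreted matricellular protein that YAP and SRF both induce (chr3:145644596-145646520), counts fell from 205, 123 and 152 to 42.8, 46.7 and 43.9 (-1.83 ± 0.20). The groups did not overlap in either window. The TSS windows of Ccn1 (-0.55 ± 0.12, edgeR adjusted p = 0.00099) and Ccn2 (-0.61 ± 0.09, adjusted p = 6.7e-08) were also lower in every CytoD library but within the fold limit.

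MRTF-SRF target genes had called windows in both directions, 8 gained (1.81%) and 11 lost (2.49%) of 442, with a median of -0.14. The TSS window of Acta2, smooth muscle actin, had 326, 352 and 356 counts in control and 179, 170 and 176 with CytoD. This was a log2 fold change of -0.98 ± 0.11, just short of the limit, with the groups apart. The called window of the list with the smallest adjusted p, near the stress fibre adaptor Pdlim5, gained (1.52 ± 0.15), and the lost Ccn1 window above, which is also in this list, had a larger fold. At Srf itself the TSS window did not pass the test (-0.09 ± 0.09), nor did those of Vcl (-0.18) and Tagln (-0.63). None of the 30 TSS windows of the list was called. Over all TSS windows only 0.305% gained and 0.265% lost, so this does not set the list apart.

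Of 660 windows at focal adhesion genes 6 gained and 15 lost (2.27%), at 11 of the 27 genes. The one with the smallest adjusted p was in an intron of Actn1, which crosslinks actin filaments at adhesions (chr12:80220145-80220679), with 281, 319 and 298 counts in control and 111, 123 and 119 with CytoD (-1.35 ± 0.13), and it held both AP-1 and TEAD letters. Integrin β3 (Itgb3) had 3 lost windows, and windows near Itgb1 (-1.21), Lims1 (-1.88) and Itgb5 (-1.34) were also lost. Of 622 windows at actin assembly genes 5 gained and 12 lost (1.93%). An intron of the formin Fmn1 fell from 653, 597 and 610 to 191, 196 and 231 counts (-1.58 ± 0.10). An intron of Actr3, the Arp3 subunit of the branching complex, gained from 160, 236 and 244 to 414, 457 and 486 (1.07 ± 0.11), and this call was lost without control replicate 1 or CytoD replicate 3. At lamina and LINC genes, which tie the nucleus to actin, 4 of 246 windows were lost (1.63%, near the background of 1.40%) and none of them gained, in Sun1 (-1.27 ± 0.15), Syne3 and near Tmpo. Within 5 kb of a TSS each of these actin and adhesion lists had 1 gain or none and 1 to 4 losses.

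At fat cell genes gains were more numerous than losses under each of the 7 scalings, from 12 against 7 to 17 against 2. Under TMM on all windows, of 470 windows at adipocyte genes 12 gained (2.55%) and 6 lost (1.28%), with a median log2 fold change of 0.12. Gains were at 8 of 21 genes: 4 at Lpl, the lipoprotein lipase, 2 at the preadipocyte factor Zfp423 and others at Pparg, Adipoq, Plin1, Lipe, Dgat2 and Retn. The Zfp423 intron window (chr8:87851313-87852329) rose from 54.9, 46.7 and 71.3 to 157, 163 and 140 counts (1.40 ± 0.19). An intron of Pparg rose from 33.7, 33.6 and 35.2 to 83.1, 80.5 and 71.2 (1.19 ± 0.23), while the tested TSS window of that gene stood at -0.25 ± 0.10 and did not pass. The TSS window of Adipoq, the fat cell hormone adiponectin, gained from 22.5, 41.8 and 31.8 to 62.4, 79.3 and 65.9 (1.08 ± 0.26, edgeR adjusted p = 0.0021), a call lost without CytoD replicate 2, control replicate 1 or control replicate 3. Losses in this list were at Ebf1, Ebf2, Cebpb, Fabp4 and Lep. TSS windows of Cebpa (-0.14), Fabp4 (-0.30) and Lpl (-0.11) did not pass the test. The adipocyte windows did not hold C/EBP letters more often than others (5.53% against 6.28%).

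Of 305 windows at osteoblast genes 3 gained (0.984%), all at Phex, a regulator of phosphate and mineralization, and 7 lost (2.30%), at Sparc, Spp1, Dlx6, Msx2, Fgfr2 and Runx2. The lost window near Dlx6 had 246, 250 and 301 counts in control and 88.0, 119 and 91.4 with CytoD (-1.42 ± 0.14). Msx2, a homeobox factor of bone, had a lost window at -1.45 ± 0.16 with AP-1, TEAD and RUNX letters. Neither the TSS window of Runx2 (0.12 ± 0.11) nor those of Sp7 (0.59 ± 0.26) and Alpl (0.17 ± 0.50) passed. The intronic Sparc window (-1.06) and the window near Spp1 (-1.05) lost their calls under total counts and under TMM on TSS windows or on the most open quintile, and the latter also without CytoD replicate 1. Under total counts the list had 5 gains and 3 losses, so its balance turned with the scaling.

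Under TMM on all windows matrix and collagen genes had 2 gains and 12 losses (2.33%) of 515 windows and a median of -0.17. Col5a1 had 3 of the losses, and the window with the smallest adjusted p, in Col5a3 (chr9:20812597-20813161), fell from 227, 188 and 245 to 91.7, 88.7 and 96.6 counts (-1.24 ± 0.15) and held AP-1 and TEAD letters. At genes of the unfolded protein response none of 312 windows gained and 6 were lost (1.92%), at Creb3l2 (-1.46), Asns (-1.68), Atf6 (-1.98) and near Chac1 (-1.35), the last not called without CytoD replicate 1 or 3. Genes that encode AP-1 factors themselves had 2 gains and 2 losses of 270 windows (0.741% each), below the background of 0.980% and 1.40%. The TSS windows of Fos (0.04 ± 0.11), Jun (-0.15 ± 0.08) and Fosl1 (-0.46 ± 0.24) did not pass the test.

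**Figure D5:**
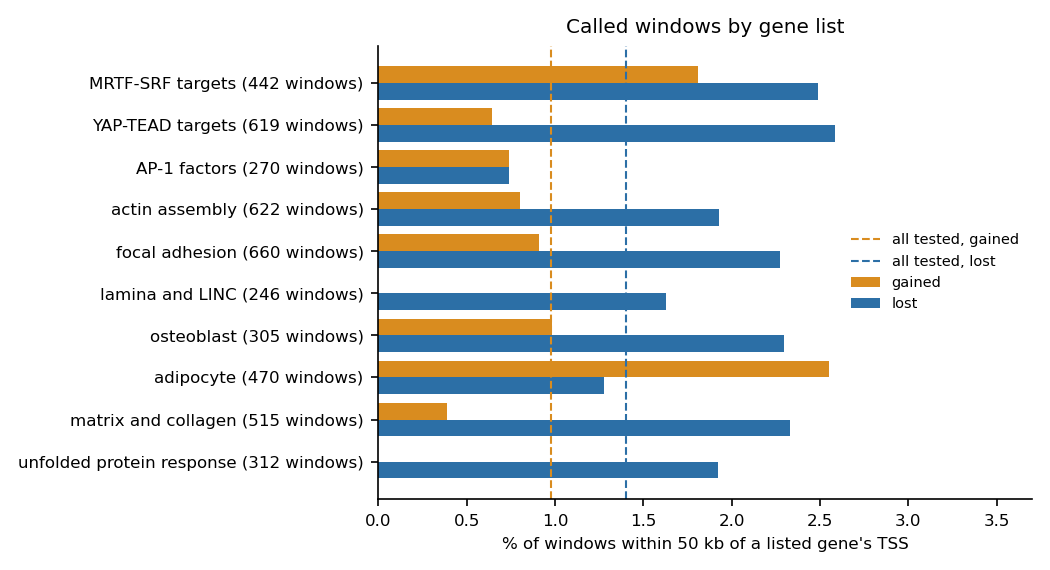
Percentage of the windows within 50 kb of the genes of 10 lists that gained or lost with CytoD, with dashed lines at 0.980% gained and 1.40% lost over all tested windows. Lists and all tested windows were not matched for openness. Calls are those of TMM on all windows: the adipocyte list has more gains (2.55%) than losses (1.28%), and the YAP-TEAD list has 2.58% lost, a majority that turned with TMM on the most open quintile.

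Beyond the lists, the protein-coding genes with most gained windows within 50 kb were Clec2d, a lectin-like receptor ligand, with 6 of 29, the chemokine gene Cxcl15 with 5 of 14, and Lpl with 4 of 32. N4bp2l1 and the proteasome gene Psma1 had 4 each and Tmem206, an acid-activated chloride channel, 3 of 10. The genes with most lost windows were Zfp184 (6 of 15, log2 fold changes from -3.07 to -1.35), Olfr1423 (6 of 24) and Psd3, which activates the small GTPase Arf6 (6 of 83). Cubn, Creb5, a relative of the AP-1 family, and Utrn, which links actin to the membrane, had 5 each. At each of these genes except Psd3, with 1 gain, no window was called in the other direction. Called windows lay close together: 52.5% of losses had another loss within 100 kb, against 36.6% of all tested windows with a loss that near, and for gains this was 39.2% against 30.6%.

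Losses were found on every chromosome, and their local share was highest on part of chromosome 13, which held 288 of the 4207. Chromosome 13 had the highest share of lost windows among the chromosomes, 2.91%, and within the most open quintile 10.6%, against 6.69% over all. Its windows were sparse, at 83.9 per Mb against 78.9 to 171 over the autosomes (109 in the 4 h table), and the part of this in its shares was not tested. Among 2197 blocks of 1 Mb with at least 20 tested windows, the highest share lost was at chr13:27000001-28000000, with 7 of 32 windows. This block holds the prolactin gene family (Prl and its placental relatives), whose genes have close copies. Next came chr13:21000001-22000000, with histone and olfactory receptor genes (15 of 109), and chrX:89000001-90000000 (3 of 22). Over 172 windows from 26000001 to 30000000 on chromosome 13, a stretch chosen after its values were seen, the median log2 fold change was -0.59, and 82.0% of windows were below 0, against 47.0% of all. The SD of block medians over the genome was 0.16. By library, the median log2 difference from the control mean in this stretch was -0.49, -0.48 and -0.48 with CytoD and -0.10, 0.08 and 0.07 in control. The CK666 libraries of the same experiment, which share these controls, stood at 0.12, 0.01 and 0.13 in this stretch, but in the block from 21000001 to 22000000 they were also below the controls, at -0.21, -0.32 and -0.18, with CytoD at -0.39, -0.42 and -0.42. The median stayed negative under each of the 7 scalings, from -0.44 to -0.64, and without each library in turn, from -0.56 to -0.66. Of the 20 blocks with the lowest medians, 11 were on chromosome 13. The highest shares gained were 2 of 21 windows at chrX:78000001-79000000 and 2 of 22 in a block at Edil3 on chromosome 13 and in one at Cxcl13 on chromosome 5. By the median, blocks also stood out upward: the highest was 0.91 over 29 windows at Auts2 (chr5:132000001-133000000), and it was 0.70 over 65 at Fam19a5 (chr15:87000001-88000000), with 1 and 0 windows called gained. In the Auts2 block control replicate 1 stood at 0.44, against 0.51 to 0.80 with CytoD. The blocks ranked by median were added after the values had been seen.

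Summed over the called windows, counts in libraries that took no part in the calls moved the same way at 4 h with another actin drug. CK666 inhibits branching of actin by Arp2/3, and the 4 h MSC libraries are 3 with and 3 without it. Windows of that table that overlap CytoD gains took 0.274, 0.273 and 0.284% of counts in control and 0.377, 0.387 and 0.387% with CK666. Windows that overlap CytoD losses took 4.28, 4.30 and 4.26% in control and 3.506, 3.531 and 3.498% with CK666. Neither pair of groups overlapped (log2 ratios 0.47 and -0.29, exact permutation p = 0.1 each, the smallest possible). In the 4 h controls CytoD losses were the more open windows, with medians of 10.5 CPM per kb for losses and 1.21 for gains. Other windows of like openness were not compared, and the part of openness in these shifts was not tested. In the paper, most regions altered at 24 h were unique to CytoD or to CK666.

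The TSS windows of 8 of 12 MSC marker genes were tested, with a mean of 13.3 CPM per kb in control (range over libraries 12.99 to 13.91) and 11.7 with CytoD (11.4 to 11.9), and Thy1, Lepr, Eng and Nt5e had no tested TSS window. Col1a2 had a log2 fold change of -0.46 with an edgeR adjusted p of 0.0046, within the fold limit, and Pdgfra and Pdgfrb did not pass. For blood cells 2 of 8 marker genes had a tested TSS window, at 2.29 to 3.36 in control and 3.15 to 4.75 with CytoD, and Ptprc, Spi1, Laptm5, Cd79a, Cd3e and Itgam had none. The Adgre1 TSS window gained (1.63 ± 0.34), as did a window in Spi1 (1.28 ± 0.22), while the TSS window of Csf1r, the other blood marker tested, stood at -0.58 and did not pass (edgeR adjusted p = 0.27). For endothelium 2 of 6 and for epithelium 2 of 5 had one, at levels of 0.774 to 3.26 in all libraries. These blood, endothelial and epithelial markers were low beside the median of all TSS windows, 7.63 CPM per kb in control. Among MSC markers, Prrx1 (3.05), Cxcl12 (4.33), Col1a1 (4.42) and Twist2 (6.07) also lay below it in control. Col1a2 (32.7), Pdgfrb (22.0), Pdgfra (18.3) and Twist1 (15.8) lay above it. The part of other cells in the gains at Adgre1, Spi1 and S100a8 was not tested.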

How the data were processed

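Per the labels, ATAC-seq was done on 50000 MSCs per library. The authors ran PEPATAC with bowtie2 and MACS2, merged peaks across replicates and deposited raw read counts per window, with no normalization. The labels name mm10 (GRCm38), tool versions and the transposase shift are not stated in the sources, and no window ran past a GRCm38 chromosome end. Counts of 9 libraries (control, CytoD and CK666 at 24 h) were fitted together with edgeR 4.0.16 (TMM, default filter on low counts, quasi-likelihood test) in R 4.3.3, which shares one estimate of spread. DESeq2 1.42.0 was an alternative. Simulated counts for this comparison covered 300323 windows, of which 200 were changed by a log2 fold of 2, above the median of the calls. Of these changed windows 88.5% were recovered. They were drawn only from windows averaging 20 counts or more, which number 157406. Recovery among sparser windows was not tested. Total counts per library were 14071301 to 22352180, and intervals of low windows are wide at this depth. GENCODE vM21 gave TSSs and places. The siRNA libraries were not used. Deviations of same-numbered libraries correlated at -0.02 to 0.01, much like those of other pairs (-0.02 to 0.02). This cannot tell whether same-numbered samples were prepared together, and they were not paired in the main fit.

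No window on chromosome 18 was named. Named windows were called, had a mean of at least 50 counts and no overlap between groups: in each direction the 6 TSS windows with the largest fold, the 6 other windows with the smallest adjusted p, the 6 genes with most called windows, up to 4 genes of each gene list, and the 3 blocks of 1 Mb with the largest share called. The last 3 kinds had no limit on counts or overlap. TSS windows of well-known list genes were added. Members and lists were chosen with earlier results of these data known. Alternatives covered scaling, filters, test, fold limit, the replicate block and leaving out each library. The results of 1 gene list and 1 block are not reported here.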

Additional observations from a re-analysis of the deposited data

How the results depend on the processing

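Gains numbered 2944 and losses 4207 (41.2% gains). With TMM on the most open quintile they were 4977 and 2178 (69.6% gains), with only windows of a mean of at least 50 counts 1469 and 1524, and with no fold limit 5114 and 12020 (29.8% gains). The majority turned to gains under total counts (56.4%) and TMM on TSS windows (54.9%) as well. Leaving out each library gave 1972 to 2430 gains and 3574 to 4922 losses, with 31.7 to 36.9% gains. DESeq2's Wald test gave 2102 gains and 4011 losses.

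The median log2 fold change of promoter windows was -0.0725 and moved to -0.106 with the GC trend removed, -0.00185 with TMM on TSS windows, 0.00509 under total counts, 0.0516 with offsets by abundance and 0.0783 with TMM on the most open quintile, and lay between -0.122 and -0.0719 without each library. Its sign was therefore set by the scaling.

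The open against closed ratio differed by -0.46 and kept its direction under each alternative. The replicate block gave 2756 gains and 4106 losses, and ended the call of 2 of the named windows. Deviations of same-numbered samples did not correlate, which cannot tell whether those samples were prepared together. Of 77 called windows among the 100 named or listed, 26 lost their call under at least one of 17 fits, and none changed direction where called. Low counts limit what can be called among closed windows, and the number of libraries limits the exact tests to a p of 0.1.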
